A study of Rattus norvegicus with 48 samples.

Results

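The ADAMTS metalloproteases were followed in cerebral endothelial cells (CECs) of fasted rats through 4 genes, Adamts1, Adamts4, Adamts9 and Adamts10, of the 13050 features that had at least 1 read in each sample. These 4 genes were named by symbol, and they were chosen because Adamts9 was high after 1 and 3 days of fasting and lower after 2 days, which raised the question whether its relatives shared this course. The set was therefore chosen by the measured group levels of Adamts9. Male Wistar-Han rats either ate ad libitum (AL) or went without food for 1 day (F1), 2 days (F2) or 3 days (F3), with 3 independent experiments per group, here called samples i, j and k. Each isolation used 4 rats, with the tissue of 2 cortices at a time pooled before digestion, CD11b-positive microglia were depleted, and CD31-positive cells were then selected with magnetic beads, so each value is that of a pool and a sort. The labels name no further treatment or allele in any group. The polyadenylated RNA of each sample was sequenced as 4 technical replicates, whose reads were summed here to 20718644 to 25960874 reads assigned to genes per sample.

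ADAMTS proteins are secreted zinc metalloproteases with thrombospondin repeats that cut components of the extracellular matrix. ADAMTS1, ADAMTS4 and ADAMTS9 are proteoglycanases that cleave the large proteoglycans versican or aggrecan, whereas ADAMTS10 cuts poorly and is tied to the fibrillin microfibrils. The ADAMTS-like proteins share the thrombospondin repeats but have no protease domain. In the brain, versican and its relatives belong to the perivascular and perineuronal matrix.

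The sorted cells carried their endothelial label. Of the 9 endothelial markers listed, 7 had an identifier, among them Pecam1, which encodes the CD31 used for the sort, and their summed level was 531621 to 613111 normalized counts over the 12 samples. Normalized counts are reads set to a common TMM-scaled library size. By group, the endothelial sum was 531621 to 561884 in AL, 559203 to 578723 in F1, 582024 to 613111 in F2 and 549363 to 563048 in F3. The endothelial marker Adgrl4 averaged 25301 in AL, 33183 in F1, 27471 in F2 and 35641 in F3. Each of its F1 and F3 samples was above each AL and F2 sample, as in 4.16% of all features. The microglial markers, of which 6 of 9 could be measured, summed to 56.7 to 134 normalized counts, and the mural markers, 3 of 8 (Abcc9, Acta2 and Anpep), to 1689 to 4744. The defining mural genes Pdgfrb and Rgs5 were not analysed here. The astrocyte list, measured by Aldoc alone (1 of 6), had 1530 to 2277, and the fibroblast markers (2 of 7) summed to 352 to 859. The oligodendrocyte markers (2 of 9) summed to 277 to 504, and the red blood cell marker Alas2 (1 of 3) had 36.1 to 110. In a chi-square test of counts, the statistic over its degrees of freedom was 1.00 to 1.02 between technical replicates and 9.75 to 51.5 between samples of the same group. F2 sample j stood apart, at 48.8 and 51.5 from F2 samples i and k, which were at 11.5 from each other. Several results that rest on F2, but not all, are therefore also given without F2 sample j. One technical replicate of F1 sample k carries labels for both a 1-day and a 2-day fast. It was kept in F1 by its title, and leaving it out changed no call given here.

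Adamts9 (ENSRNOG00000023257), a versican-cleaving protease, was the gene whose course chose the set, so its values are a description and carry no test. In AL rats it had 2440.2, 3795 and 2914 normalized counts in samples i, j and k. In F1 rats it had 8482, 9141 and 8726, in F2 rats 3748, 2376 and 4518, and in F3 rats 12634, 8777 and 11546. Every F1 and F3 sample was above every AL and F2 sample, as in 4.16% of all features, AL and F2 overlapped, and so did F1 and F3. In bulk samples of this kind, fewer cells of a type and less RNA per cell cannot be told apart. The group means were 3049.8 ± 687 in AL, 8783 ± 333 in F1, 3547 ± 1085 in F2 and 10986 ± 1989 in F3 (SD, n = 3). The log2 fold change (LFC) against AL was 1.53 (SE 0.22), 0.22 (SE 0.22) and 1.85 (SE 0.23) on days 1, 2 and 3, which is 2.88-fold and 3.60-fold for days 1 and 3. The day 2 value depended on the samples kept, and was 0.44 without F2 sample j, 0.0056 without F2 sample k, 0.084 without AL sample i and 0.40 without AL sample j. From F1 to F2 the LFC was -1.31 (SE 0.22), and from F2 to F3 it was 1.63 (SE 0.22), and without F2 sample j these were -1.09 and 1.41.

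A single contrast summarised this course, the mean of F1 and F3 against the mean of AL and F2 on the log2 scale, here called the V-shaped contrast. For Adamts9 it was 1.58 (SE 0.16), or 1.47 without F2 sample j, a value that restates the course by which the gene was chosen. In F1 sample k, the 4 technical replicates held 2144, 2173, 2172 and 2114 Adamts9 reads, of which the last is the replicate with conflicting labels. These reads do not set that replicate apart from its partners.

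**Figure D1:**
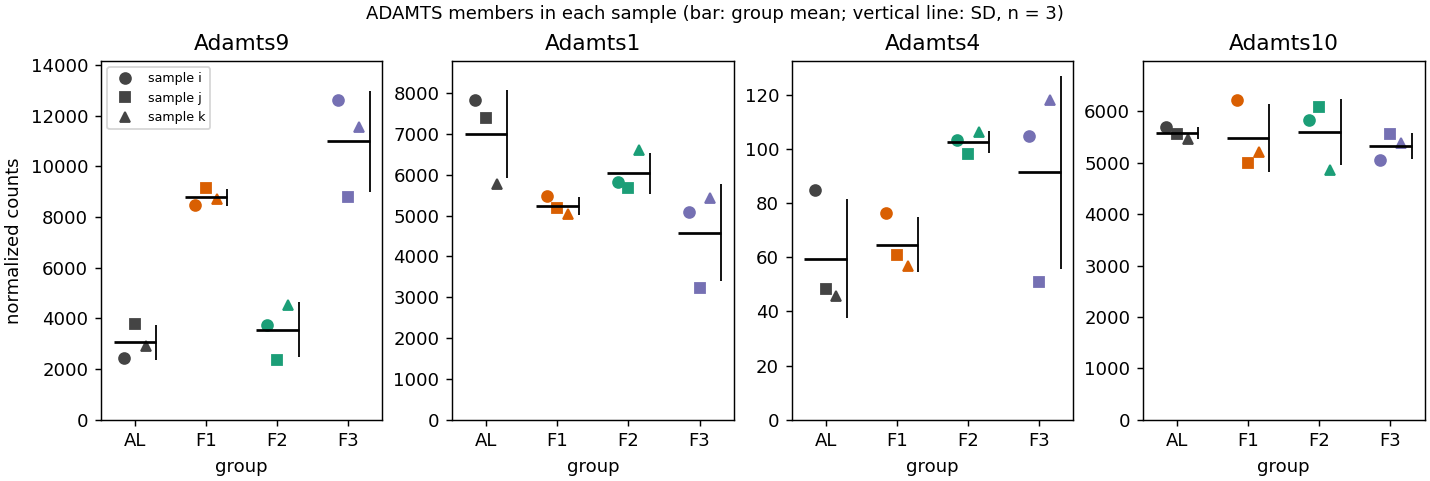
Normalized counts (vertical axes, from 0, a separate scale for each gene) of the 4 genes in each sample (circle i, square j, triangle k) of the groups AL, F1, F2 and F3, with the group mean as a bar and the SD as a vertical line (n = 3). The F1 and F3 samples of Adamts9 all sit above its AL and F2 samples, those of Adamts1 all sit below, and the groups of Adamts10 overlap.

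The upstream sequences of Adamts9 and Adamts1 are shown because these were the 2 members whose F1 and F3 samples did not overlap with their AL and F2 samples, in opposite directions. Each is the 250 bases before the RefSeq gene start in the rat assembly GRCr8, on the minus strand of chr4:127019877-127020126 for Adamts9 and chr11:38427385-38427634 for Adamts1, printed 5′ to 3′ on the gene's strand. Capitals mark matches, on either strand, to the TATA box (letters TATAAA), the GC box (letters GGGCGG) and the box named by its letters CCAAT, and no match overlaps another.
Adamts9: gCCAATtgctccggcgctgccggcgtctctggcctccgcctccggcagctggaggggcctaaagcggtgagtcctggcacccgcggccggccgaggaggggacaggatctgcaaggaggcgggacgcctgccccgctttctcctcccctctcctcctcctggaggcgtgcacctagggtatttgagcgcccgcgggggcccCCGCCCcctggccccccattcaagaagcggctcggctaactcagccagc
Adamts1: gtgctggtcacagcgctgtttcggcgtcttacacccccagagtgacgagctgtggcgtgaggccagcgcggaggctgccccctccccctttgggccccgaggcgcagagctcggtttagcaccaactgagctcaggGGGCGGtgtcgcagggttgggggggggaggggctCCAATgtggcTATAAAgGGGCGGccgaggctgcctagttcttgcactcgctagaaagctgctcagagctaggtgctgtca
Of 33469 rat promoters of the same length, 12.9% held TATAAA, 30.5% GGGCGG and 34.0% CCAAT. Adamts9 held 1 GC box and 1 CCAAT box, and Adamts1 held 1 TATA box, 2 GC boxes and 1 CCAAT box. The window of Adamts10 held 1 TATA box and 2 GC boxes, and that of Adamts4 none of the 3 motifs. Adamts9 and Adamts10 had a GC content of 71.6% and 70.4%, Adamts1 65.2% and Adamts4 51.2%, where the median promoter had 51.2%. The E-box CACGTG, the cyclic AMP response element TGACGTCA and the AP-1 site TGACTCA, present in 5.59%, 1.59% and 4.05% of promoters, were not among the letters of any of these 4 windows. Matches of this kind are letters and not sites of binding.

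Adamts1 (ENSRNOG00000001607) was low on the days on which Adamts9 was high. This proteoglycanase is also known as a gene that inflammation induces. It had 7845, 7392 and 5786 normalized counts in AL samples i, j and k, and 5485, 5194 and 5045 in F1. In F2 it had 5819.8, 5679.8 and 6601, and in F3 5096, 3223 and 5437. All F1 and F3 samples were below all AL and F2 samples, and AL and F2 overlapped, as did F1 and F3, with F3 sample j by far the lowest of the 12. The means were 7008 ± 1082, 5241 ± 224, 6033 ± 496 and 4586 ± 1192 in AL, F1, F2 and F3 (SD, n = 3).

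In the quasi-likelihood test of edgeR, adjusted by Benjamini-Hochberg over all 13050 features, Adamts1 fell in F3 against AL, by 0.61 on the log2 scale (SE 0.17, 95% interval -0.97 to -0.25, adjusted p = 0.0326). In that comparison 5.77% of all features were called lower, and the samples of 18.0% were all lower in F3. In F1 the LFC against AL was -0.42 (SE 0.17, adjusted p = 0.172), with all F1 samples below AL as for 14.1% of features, and in F2 it was -0.22 (SE 0.17, adjusted p = 0.639), or -0.17 without F2 sample j (0.761). The V-shaped contrast was -0.41 (SE 0.12, 95% interval -0.66 to -0.15) and passed the test (adjusted p = 0.0341). Here 6.77% of features were called lower, and 2.74% had all F1 and F3 samples below all AL and F2 samples. The single steps did not pass, with an LFC of 0.20 from F1 to F2 (SE 0.17, adjusted p = 0.578) and -0.40 from F2 to F3 (SE 0.17, adjusted p = 0.186). All F2 samples were above F1, as in 9.75% of features, and all F3 samples below F2, as in 12.1%. Without F2 sample j the steps were 0.24 (adjusted p = 0.605) and -0.44 (0.286).

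Both calls of Adamts1 stood close to the threshold. The call at F3 was lost without AL sample i (adjusted p = 0.114), AL sample j (0.0775), F2 sample j (0.0515), F3 sample i (0.0551) or F3 sample j (0.0509), and the call of the V-shaped contrast without AL sample i (0.0783), AL sample j (0.0603), F1 sample i (0.0593), j (0.0695) or k (0.0710), or F2 sample j (0.0649) or k (0.0721). Without the filter on reads neither passed (0.0573 and 0.0577), nor did the F3 call with only the AL and F3 samples in the fit (0.151). Both LFCs stayed below 0 in these and all other alternatives run.

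Genes of the early response, which tissue handling is known to switch on, were read beside Adamts1. Of 15 listed genes, 6 had an identifier (Arc, Atf3, Bhlhe40, Btg1, Btg2 and Ccl2). Their summed level was 49728 to 90429 normalized counts in AL, 58452 to 70117 in F1, 70743 to 88501 in F2 and 58581 to 65097 in F3. Btg2 made up most of this sum. Atf3, a transcription factor of the stress response, had 14970.0, 9192 and 4838 in AL, 6438, 5692 and 3726 in F1, 7148, 11622 and 7154 in F2, and 3964, 4138 and 4664 in F3. Its V-shaped contrast was -0.95 (SE 0.24, adjusted p = 0.0216) and did not pass without F2 sample j (0.0940) or without the filter on reads (0.0829), and that of Bhlhe40, a repressor of transcription, was -0.33 (SE 0.06, adjusted p = 0.00352). Atf3 and Bhlhe40 were the only 2 of the 6 genes called in the V-shaped contrast, both lower, where 6.77% of all features were called lower. In F3 against AL, 0 of the 6 had an LFC above 0. Only Atf3 was called there, where 5.77% of features were called lower, and 12 of 22 alternatives lost the call. Bhlhe40 was also called higher from F1 to F2 (0.437% of features) and lower from F2 to F3 (2.32%). The highest Atf3 and the highest Adamts1 were both in AL sample i. In F3 sample j, where Adamts1 was lowest, Atf3 was close to the other F3 samples. The part of these genes in the Adamts1 result was not tested.

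**Figure D2:**
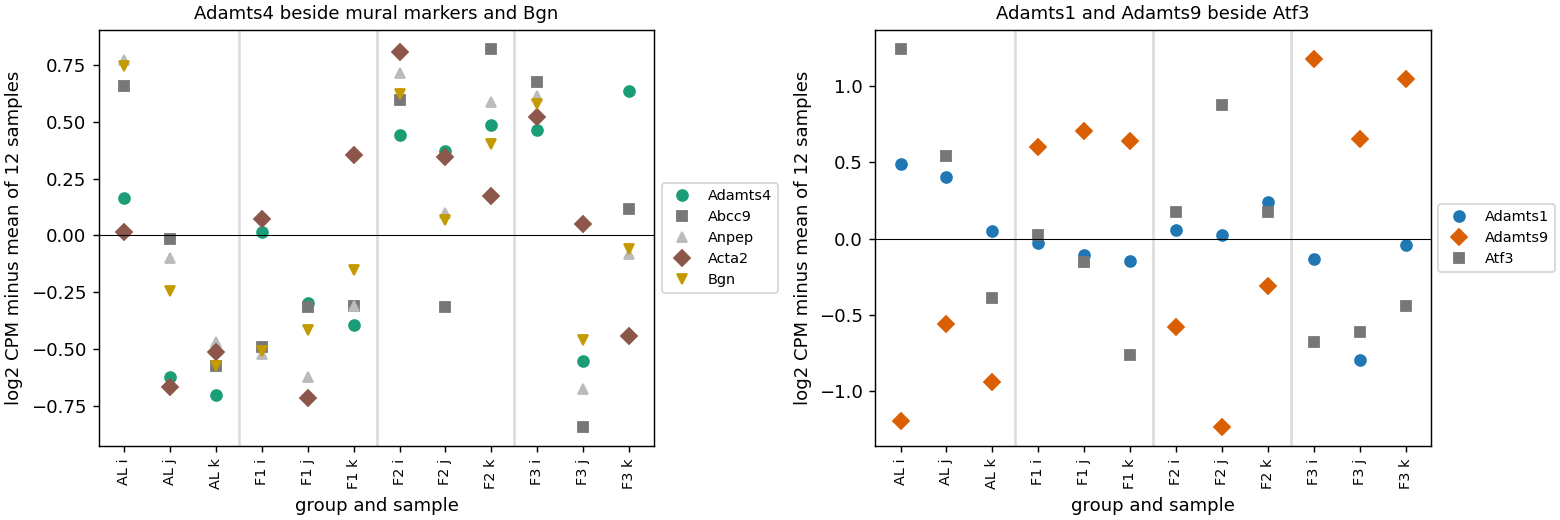
Log2 CPM (reads scaled to library size, on a log2 scale) of each gene minus its own mean over the 12 samples (vertical axes), for each sample by group (horizontal axes). On the left, Adamts4 is drawn with the mural markers Abcc9, Anpep and Acta2 and with Bgn. Adamts4, Abcc9, Anpep and Bgn are below their means in F3 sample j, and Acta2 is not. On the right, Adamts1 and Atf3 are both highest in AL sample i, and Adamts9 is above its mean in F1 and F3 only.

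Adamts4 (ENSRNOG00000003538), an aggrecan-cleaving protease known in oligodendrocytes, did not follow Adamts9 and was measured from few reads. Its samples held 41 to 119 reads, with an exact Poisson 95% interval of 29.4 to 55.6 for the lowest and 98.6 to 142 for the highest, which covers counting error only. It had 84.7, 48.2 and 45.6 normalized counts in AL, 76.2, 60.9 and 56.8 in F1, 103, 98.1 and 106 in F2, and 105, 50.7 and 118 in F3. All F2 samples were above all AL and F1 samples, and F3 spanned from the AL values to above the F2 values. The means were 59.5 ± 21.9, 64.7 ± 10.2, 103 ± 4.13 and 91.3 ± 35.7 (SD, n = 3).

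The LFC of Adamts4 against AL was 0.11 (SE 0.30, adjusted p = 0.877) in F1, 0.77 (SE 0.29, 95% interval 0.15 to 1.40, adjusted p = 0.275) in F2 and 0.61 (SE 0.29, adjusted p = 0.211) in F3, and from F1 to F2 it was 0.66 (SE 0.29, adjusted p = 0.259). None passed the test. Without F2 sample j the value was 0.80 in F2 against AL (0.309) and 0.69 from F1 to F2 (0.316). In F2, 0.490% of features were called higher than in AL, while 6.89% had all samples above AL and 9.75% had all samples above F1. The V-shaped contrast was -0.03 (SE 0.21, 95% interval -0.47 to 0.42, adjusted p = 0.947). The value at F3 depended on the samples kept: it was 0.38 without F3 sample k (adjusted p = 0.558), 0.96 without AL sample i (0.0763) and 0.89 without F3 sample j, where it passed (0.0386).

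Markers of the mural cells, the pericytes and smooth muscle cells of vessels, ran with Adamts4 in some samples and not in others. Abcc9, a channel subunit of pericytes, had 3560.1, 2225 and 1509 normalized counts in AL, 1603, 1811 and 1816 in F1, 3408, 1809 and 3979.5 in F2, and 3605, 1254 and 2445 in F3. The summed mural level was 1908 to 4372 in AL, 2066 to 2365 in F1, 2451 to 4744 in F2 and 1689 to 4443 in F3, with its lowest value in F3 sample j, where Adamts4 was also low. Abcc9 made up most of this sum. Acta2, the actin of smooth muscle, differed from Abcc9 in some samples. It had 211, 130.4 and 146 in AL, 219.5, 126 and 267 in F1, 366, 265.5 and 236 in F2, and 299.8, 216 and 153 in F3. Its F3 sample j lay above F3 sample k, and its LFC in F1 was 0.33, against -0.48 for Abcc9 and -0.65 for Anpep, none of which passed. In F2 all 3 mural markers had an LFC above 0 against AL (0.32 to 0.83), and none passed. All F2 samples of Acta2 were above AL, as in 6.89% of features. In F2 sample j, Abcc9 was low, and Adamts4 and Acta2 were not. Of the oligodendrocyte markers 2 of 9 were measured, Apod and Aspa, and their sum was 330.3 to 441 in AL, 313 to 360.1 in F1, 427 to 504 in F2 and 277 to 384 in F3. The myelin genes Mbp and Mog were not analysed here. The part of these cells in the Adamts4 values was not tested.

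Adamts10 (ENSRNOG00000008857), the protease of the fibrillin microfibrils, stayed within its replicate spread in every comparison. It had 5691, 5568 and 5459 normalized counts in AL, 6229, 4999 and 5200.1 in F1, 5833, 6085 and 4864 in F2, and 5055, 5555 and 5384 in F3. All groups overlapped with each other. The LFC against AL was -0.03 (SE 0.10) in F1, 0.01 (SE 0.10, 95% interval -0.20 to 0.21) in F2 and -0.06 (SE 0.10, 95% interval -0.27 to 0.15) in F3, with adjusted p of 0.917, 0.990 and 0.744. The V-shaped contrast was -0.05 (SE 0.07, 95% interval -0.20 to 0.10, adjusted p = 0.697). Without F2 sample j it was -0.015 (adjusted p = 0.905).

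The other genes of the family were read in the same fit. Besides Adamts9, 10 of 18 listed ADAMTS proteases and 4 of 6 ADAMTS-like genes had an identifier and at least 1 read in each sample, 14 in all, the 3 members above included. None of the 14 was called higher in the V-shaped contrast, where 9.07% of all features were, and 2 were called lower, Adamts1 and Adamtsl2, where 6.77% of all features were. The median V-shaped contrast of the 14 was -0.0047, with 7 above 0, against -0.0077 over all features. Against AL, none was called in F1, where 6.56% of features were, or in F2, where 0.858% were. In both comparisons 2 of the 14 had an unadjusted p under 0.05, as had 2691 of all 13050 features in F1 and 1675 in F2. DESeq2 called none of the 14 in either. In F3, none was called higher, where 6.28% of features were, and 2 were called lower, again Adamts1 and Adamtsl2, where 5.77% were. The median LFC of the 14 was 0.11, 0.40 and -0.05 on days 1, 2 and 3, against medians of -0.0043, -0.0085 and -0.0053 over all features. The day 2 median leans on genes with 1 to 19 reads per sample (Adamts2, Adamts7, Adamts14, Adamts15, Adamts19 and Adamtsl5). All of these had an F2 mean above that of AL. Among genes with a mean of at least 50 normalized counts, Adamts1, Adamts12 and Adamtsl2 were lower in F2. The means of Adamts4, Adamts6, Adamts10, Adamtsl1 and Adamtsl4 were higher, that of Adamts10 only slightly.

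Between fasting days, none of the 14 was called from F1 to F2, against 1.43% of features, and DESeq2 called none of the 14. An unadjusted p under 0.05 was found for 1 of the 14 and for 2252 of all 13050 features. From F2 to F3, Adamtsl2 alone was called lower, against 2.32% of features called lower. In F3 against F1 none was called, but neither was any feature in this comparison (0%), although 579 features, 2 of the 14 among them, had an unadjusted p under 0.05. DESeq2 called 24 features there and none of the 14.

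Adamtsl2 (ENSRNOG00000027742), an ADAMTS-like protein of the microfibrils, was lowest on day 3. It had 1409, 1789 and 1748 normalized counts in AL, 1506, 1301 and 1144 in F1, 1381, 1417 and 1197 in F2, and 981, 1062 and 946 in F3. All F3 samples were below the samples of every other group, as in 18.0% of features against AL, 7.13% against F1 and 12.1% against F2. F1 and F2 overlapped with each other and with AL. It fell in F3 by 0.73 on the log2 scale against AL (SE 0.11, 95% interval -0.97 to -0.48, adjusted p = 0.00110), a call kept in all 22 alternatives. The LFC was -0.32 in F1 (SE 0.11, adjusted p = 0.108) and -0.31 in F2 (SE 0.11, adjusted p = 0.256). From F1 to F2 the LFC was 0.02 (SE 0.11, 95% interval -0.23 to 0.26, adjusted p = 0.960), and from F2 to F3 it fell by 0.42 (SE 0.11, adjusted p = 0.0444), a call lost without AL sample k (0.0505), F1 sample j (0.0654), F2 sample i (0.0980) or j (0.118), or any F3 sample (0.0714 to 0.154), and with only the F2 and F3 samples in the fit (0.0588). Its V-shaped contrast was -0.37 (SE 0.08, adjusted p = 0.00663). This contrast also takes up a fall at day 3 alone, and F1 sample i lay above AL sample i.

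**Figure D3:**
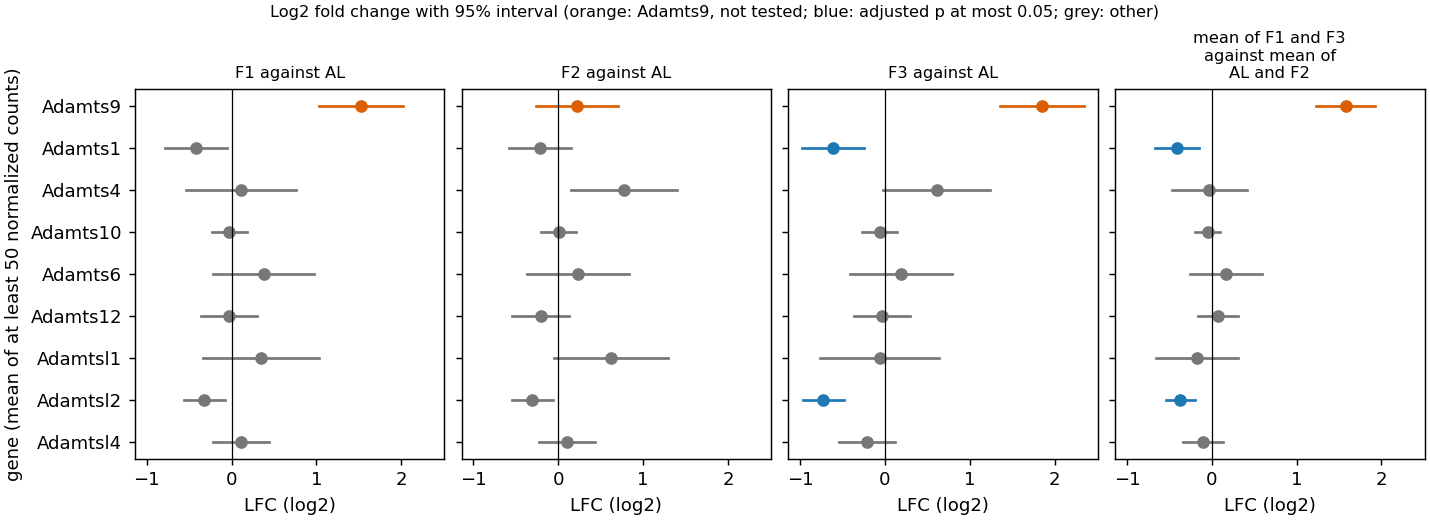
LFC (log2, horizontal axes) with its 95% interval for the 9 ADAMTS and ADAMTS-like genes with a mean of at least 50 normalized counts, in F1, F2 and F3 against AL and in the V-shaped contrast (mean of F1 and F3 against mean of AL and F2). Adamts9 (orange, not tested) stands at 1.53, 0.22, 1.85 and 1.58, and the blue genes Adamts1 and Adamtsl2 passed the test below 0 in F3 and in the V-shaped contrast.

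The remaining family genes showed no call with all samples. Adamts6 and Adamts12, proteases of the matrix, averaged 87.8 and 122 normalized counts over the 12 samples, and their V-shaped contrasts were 0.17 (SE 0.20, adjusted p = 0.608) and 0.07 (SE 0.11, adjusted p = 0.719). Adamtsl1 and Adamtsl4 averaged 55.7 and 264 and had -0.17 (SE 0.22, adjusted p = 0.655) and -0.10 (SE 0.11, adjusted p = 0.565). The F1 samples of Adamts6 and Adamtsl1 were all above AL, as in 14.6% of features. The intervals of these 4 contrasts reached at most 0.59. Without F2 sample j, Adamtsl1 was called higher in F2 than in AL (LFC 0.98, adjusted p = 0.0328) and lower from F2 to F3 (-1.04, adjusted p = 0.0134). Adamts2, Adamts7, Adamts14, Adamts15, Adamts19 and Adamtsl5 held 1 to 19 reads per sample, so a difference between days was not detectable at this depth unless it was large. Adamts3, Adamts5, Adamts8, Adamts13, Adamts16, Adamts17, Adamts18, Adamts20, Adamtsl3 and Papln were not analysed here. In the GRCr8 gene order Adamts5 is the next protein-coding gene after Adamts1.

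The membrane-bound relatives, the ADAM proteases, shed proteins from the cell surface. Of 15 listed, 11 could be tested, and Adam17 was the only one called in any comparison. Adam17, which releases TNF and ligands of the EGF receptor, had 6548, 6619 and 7059.7 normalized counts in AL, 5491, 4974 and 5244 in F1, 5474, 4803 and 5038 in F2, and 4633, 4736 and 4615 in F3. All fasted samples were below all AL samples, as in 14.1%, 8.66% and 18.0% of features on days 1, 2 and 3. It fell by 0.36 (SE 0.07, adjusted p = 0.00902), 0.40 (SE 0.07, adjusted p = 0.0185) and 0.53 (SE 0.07, adjusted p = 0.000393) on the log2 scale on days 1, 2 and 3. The call at F1 was lost without F1 sample j (adjusted p = 0.0584), that at F2 without AL sample k (0.115) or F2 sample k (0.0527) and with only the AL and F2 samples in the fit (0.209), and that at F3 was kept throughout. From F1 to F2 the LFC of Adam17 was -0.04 (SE 0.07, 95% interval -0.19 to 0.12, adjusted p = 0.839), while its V-shaped contrast passed at -0.25 (SE 0.05, adjusted p = 0.00479). Its F1 and F2 samples overlapped, unlike those of Adamts1, and the difference between the 2 genes was not tested.

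Of 15 listed substrates of the ADAMTS proteases, Bgn could be tested, which encodes the small proteoglycan biglycan. It had 859, 430.4 and 342 normalized counts in AL, 358, 381 and 459 in F1, 788, 536 and 675 in F2, and 765, 371 and 489.5 in F3. Its groups overlapped in every comparison but F2 against F1, where all F2 samples were higher (LFC 0.74, SE 0.33, adjusted p = 0.280), as were those of 9.75% of features. Its sample pattern ran with that of Abcc9 and Anpep, high in AL, F2 and F3 sample i and low in F3 sample j, and their part in it was not tested. Of 10 genes of ADAMTS maturation and control B3glct could be tested, the enzyme that adds glucose to the fucose on thrombospondin repeats. Its LFCs lay between -0.02 and 0.03 in all 6 comparisons of single groups, and none passed.

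Among the candidates compared, the genes with the course most like that of Adamts9 came from outside the family. Likeness was the root mean square difference of log2 CPM, centred on each gene's mean, over the 12 samples, among 1146 genes with a symbol and a mean of at least 100 normalized counts. Family genes below this mean, among them Adamts4 (79.5), Adamts6 (87.8) and Adamtsl1 (55.7), could not be picked. Adamts1, Adamts10, Adamts12, Adamtsl2 and Adamtsl4 were the only family candidates, so the picks say little about the family. The nearest were Arhgap31 and Bcar3 (0.467 each), Amer1 (0.486), Slc19a3 (0.488), Slc1a4 (0.489) and Baiap2 (0.4997), where the median gene had 0.871 and a flat line would have 0.854. Adamts10 had 0.902, Adamts4 0.945 and Adamts1 1.07. Arhgap31 encodes a GTPase-activating protein for Rac1 and Cdc42, Slc19a3 a thiamine transporter and Slc1a4 a transporter of neutral amino acids.

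These courses were smaller than that of Adamts9. Arhgap31 averaged 16912 normalized counts in AL, 27817 in F1, 18700.2 in F2 and 29749 in F3, with LFCs against AL of 0.72, 0.15 and 0.81. Slc1a4 averaged 479, 915, 580.0 and 1016, with LFCs of 0.93, 0.28 and 1.08, and Slc19a3 4440.4, 7757, 5462 and 8934, with 0.80, 0.30 and 1.01. Amer1 alone of the 6 had an F2 mean below that of AL, with 132, 215, 113 and 221. Baiap2, with LFCs of 1.17, 0.76 and 1.31, came back least on day 2. As these genes were picked for their likeness, their values carry no test, and only genes whose symbols were at hand could be picked. For Slc19a3 and Slc1a4 the symbol may have been at hand because the paper lists SLC transporters that changed with fasting. Such candidates would have been preselected in these same data.

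**Figure D4:**
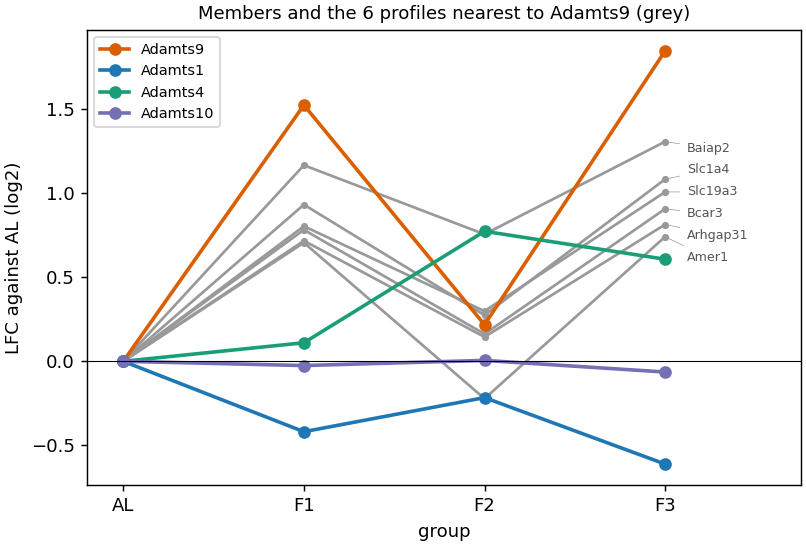
LFC against AL (log2, vertical axis) in AL (0 by definition), F1, F2 and F3 for the 4 ADAMTS genes (coloured) and for the 6 genes whose course was nearest to that of Adamts9 (grey, named at the right). Adamts9 goes from 1.53 to 0.22 and 1.85, the grey genes stay at or below 1.31, Adamts1 stays below 0, Adamts10 stays between -0.06 and 0.01, and Adamts4 is highest in F2.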

How the data were processed

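Polyadenylated RNA was sequenced from strand-specific libraries of 12 samples (AL, F1, F2 and F3, 3 each). The deposited files hold raw counts, whole numbers per gene and technical replicate, 48 files in all. Per the labels, the authors used bcl2fastq 2.18.0.12, STAR and HTSeq 0.5.3 with the rat build Rnor_6.0. The reads that matched more than once had been removed, and the strand setting of the counting is not given in the sources used here.

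Reads were summed over the 4 technical replicates. Of 32624 features, 18780 had any read, and the 13050 with a minimum of 1 read per sample were kept, of which 2043 had a symbol, taken from supplementary tables. The list of all genes was shortened to the early part of the alphabet. Symbols of Slc genes lie outside that part, and the paper lists ABC and SLC transporters separately by differential expression. These 13050 were tested in R 4.3.3 with edgeR 4.0.16 (TMM, robust quasi-likelihood fit, 1 model of 4 group means, no covariates). P-values were two-sided, with Benjamini-Hochberg adjustment across the whole table and a threshold of 0.05. Log2 CPM used a prior count of 2. The steps were tested on simulated data. With 3 samples per group, p-values measure the spread between experiments, each of pooled tissue.

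The members and gene lists were chosen with earlier results of these data known. Adamts9 was given no p because its course chose the members. Named were the members, the other ADAMTS and ADAMTS-like genes with a mean of at least 50 normalized counts or a call, the ADAM, substrate and control genes that were called, and the 6 nearest courses. Bgn, B3glct, the early response genes and the markers were named outside this rule, after their values were seen. Sequences come from RefSeq (GRCr8), in which all 4 members matched by symbol. The alternatives were DESeq2 size factors, total counts, upper-quartile scaling, DESeq2 1.42.0, no filter, at least 10 reads, filterByExpr, only the groups compared, the sample letter as a block, the conflicting technical replicate left out, and each sample left out in turn.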

Additional observations from a re-analysis of the deposited data

How the results depend on the processing

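The values of Adamts9 kept their sign and moved by less than 1 SD between replicates in all alternatives, but its day 2 value against AL, 0.22, ran from 0.0056 to 0.44 when 1 sample was left out. Without any filter, the calls of Adamts1 were lost at F3 (LFC -0.61, adjusted p = 0.0573) and in the V-shaped contrast (-0.41, adjusted p = 0.0577), which left 1 family gene called in each. With only the groups compared, Adamts1 passed in F1 (-0.42, adjusted p = 0.0442; 1 family gene called) and not in F3 (-0.61, adjusted p = 0.151; 1 called), and 0 family genes were called from F2 to F3. With total counts only, 1 family gene, Adamtsl2, was called in F1 and the LFC of Adamts10 in F2 was -0.031.

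Over the fits that left out 1 sample, Adamts1 ranged from -0.76 to -0.41 in F3, -0.54 to -0.33 in F1 (called without F3 sample j, adjusted p = 0.0392), -0.48 to -0.31 in the V-shaped contrast and -0.33 to 0.0070 in F3 against F1. Adamts4 ranged from -0.048 to 0.46 in F1, 0.38 to 0.96 in F3, -0.40 to 0.12 from F2 to F3 and -0.14 to 0.15 in the V-shaped contrast. Adamts10 ranged from -0.13 to 0.036 in F1, -0.060 to 0.097 in F2, -0.034 to 0.13 from F1 to F2 and -0.10 to 0.064 in F3 against F1. The family genes called numbered 0 to 1 in F1, 0 to 1 in F2 (Adamtsl1, without F2 sample j), 1 to 2 in F3, 0 to 1 from F2 to F3 and 1 to 2 in the V-shaped contrast. At F3 Adamts15 was called higher without AL sample i and Adamts4 without F3 sample j. The cause was not tested.

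The deviations of same-letter samples correlated at -0.017 to 0.14, with 3 of 18 pairs above 0.1. Pairs of different letters were not compared, so these values cannot decide whether samples of the same letter share an experiment. With the letter as a replicate block, Adamts1 kept its calls (F3 -0.63, adjusted p = 0.0363; V-shaped contrast -0.42, adjusted p = 0.0382), and no call of a family gene changed. The LFC of Adamts9 was then 1.52 in F1 and 1.83 in F3. Depth limits the family genes with under 20 reads per sample, and the missing symbols limit the substrate and control lists. The number of all features called also moved: leaving out 1 sample gave 306 to 1451 in F1 (856 with all samples), 34 to 157 in F2 (112), 790 to 2366 in F3 (1572), 0 to 194 from F1 to F2 (186) and 164 to 755 from F2 to F3 (775), and the other settings gave 739 to 1241, 0 to 359, 1359 to 2031, 56 to 616 and 262 to 1242.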
